A study of Mus musculus with 8 samples.

Results

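Wt1 and 9 genes whose proteins are reported to bind WT1 or to act as its cofactors were followed in mouse LB-22 cells treated with an siRNA against Wt1. The members were all probe sets whose platform annotation gave 1 of these 10 gene symbols and no other. All 10 genes, of 18201 named on the array, were found this way, with 16 of its 45101 probe sets, of which 14 were bright enough to be tested. LB-22 is an immortalized line from embryonic mouse kidney. One group of 4 samples received scramble control siRNA and another group of 4 received Wt1 siRNA, each with 25 pmol of siRNA for 6 h, and RNA was taken 48 h later. Interferon gamma was present while the cells of both groups were expanded, and from transfection on they grew warmer and without it. A single line was used, and the sources used here do not give the siRNA sequence. Whether the replicates were separate cultures is not said in the labels, and p-values then cover only the spread among these arrays, which may be technical.

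WT1 is a zinc finger transcription factor needed for kidney, gonad and mesothelium development, and its effect on a target gene depends on the proteins it recruits. Coactivators of the CBP and p300 pair acetylate histones, whereas BASP1 and PAR-4 (the product of Pawr) can turn WT1 towards repression. Splice forms of WT1 that carry an insertion of lysine, threonine and serine between zinc fingers associate with splicing factors such as the U2AF subunit encoded by U2af2. The array has a single Wt1 probe set and does not separate these forms. Its suffix _s_at means that it may match more than 1 transcript.

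The arrays were scaled alike, with medians of 279.1 to 346.1 in units of signal. The highest signal of 27 control probe sets for Bacillus transcripts, taken as background, was 121.6 to 227.2 across arrays. Of the 8 arrays, control siRNA array 3 and Wt1 siRNA array 4 stood apart, with quality weights of 0.364 and 0.402 against 0.910 to 1.997 for the other arrays of their fit. Ratios of 3' to 5' control probe sets, a sign of RNA integrity, were 0.793 to 0.913 for Gapdh and 1.11 to 1.21 for actin. Of 6 named nephron progenitor markers, 3 were above background on all arrays, and Gdnf, Cited1 and Sall1 were not above it on any. All 5 mesothelial markers were above it, and their summed signal was 78513 to 91152 on control arrays and 50613 to 57440 after Wt1 siRNA. Summed signals of 4 other marker lists were also lower after Wt1 siRNA without overlap of the groups. They were 2766.9 to 5861.5 on control arrays and 1306.3 to 1837.1 after Wt1 siRNA for podocytes (2 of 3 named markers above background on all arrays) and 22735 to 27443 and 14670 to 19018 for kidney stroma (3 of 6). They were 14231 to 16695 and 12709 to 13228 for epithelium (4 of 5), and 2051.7 to 2717.8 and 1593.3 to 1839.5 for endothelium (1 of 5). Epithelial markers were split at limma adjusted p under 0.05. Cdh1 (log2 difference 0.95) and Krt8 (0.55) were higher, and Epcam (-2.10) and Krt18 (-0.19) lower. Most of the stroma sum was Col1a1, with means of 24014 on control arrays and 15322 after Wt1 siRNA, and no other stroma marker passed. The nephron progenitor sum was higher, at 2286 to 2872 after Wt1 siRNA against 1371.6 to 2049.4. Of its markers Osr1 alone was called, with means of 994.4 on control arrays and 1622.8 after Wt1 siRNA (limma adjusted p = 0.0137). Six2 and Eya1 did not pass (adjusted p = 0.243 and 0.566). Sums for leukocytes (2 of 5) and neurons (1 of 5) overlapped between groups. The 2 leukocyte markers above background were called in opposite directions at limma adjusted p under 0.05. Cd68 was higher (log2 difference 0.99) and Csf1r lower (-0.76). The part of these markers in the results below was not tested.

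The promoters of Basp1 and Pawr are shown because these partners moved in opposite directions after Wt1 siRNA. Each sequence is the 250 bases before the annotated start (RefSeq, GRCm38.p6), 5' to 3' on the gene's strand. Basp1 lies at chr15:25413765-25414014 on the minus strand and Pawr at chr10:108331939-108332188 on the plus strand. Capitals mark matches on either strand to GCGNGGGNG, a form of the motif shared by WT1 and EGR1, or to TCCTCCTCC, another motif reported for WT1.
Basp1: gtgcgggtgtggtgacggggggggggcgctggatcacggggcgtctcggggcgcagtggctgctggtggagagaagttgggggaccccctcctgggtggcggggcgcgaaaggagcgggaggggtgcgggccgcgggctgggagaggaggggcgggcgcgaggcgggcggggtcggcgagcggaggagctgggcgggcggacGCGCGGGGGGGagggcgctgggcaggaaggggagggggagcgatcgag
Pawr: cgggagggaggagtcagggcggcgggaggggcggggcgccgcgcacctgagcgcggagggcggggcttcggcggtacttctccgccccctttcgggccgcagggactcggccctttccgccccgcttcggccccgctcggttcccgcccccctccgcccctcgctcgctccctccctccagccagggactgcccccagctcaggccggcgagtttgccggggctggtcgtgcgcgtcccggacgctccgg
The Basp1 window held 2 overlapping matches to GCGNGGGNG starting at position -48, and the Pawr window held no match to either motif. Among 32817 promoter windows of the same length, 10.5% held GCGNGGGNG, 2.45% held TCCTCCTCC and 12.4% held either. Promoters of 7 of the 10 genes were in the table, and of their 9 windows 6 held a match. Of these 6, 2 were overlapping Wtap windows with the same site. The member windows were 68% to 84% G and C, and the shares over all windows are not matched for this. GCGNGGGNG also occurred in windows of Wtap, Ciao1, Crebbp and Ep300, and Ep300 held TCCTCCTCC as well, so matches were found both at genes that were called and at genes that were not. A match is only a description of the letters.

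Wt1 transcript was strongly lowered on every array of the Wt1 siRNA group. Arrays 1 to 4 of the control siRNA group read 8396.8, 7129.4, 8197.2 and 7423, and those of the Wt1 siRNA group read 1679.3, 1531, 1316.8 and 1913.9. The groups did not overlap, and 20.5% of the control signal remained. The log2 difference was -2.28 (95% interval -2.53 to -2.04; limma adjusted p = 9.17e-07), the 12th largest fall among 22518 tested probe sets. In bulk RNA, fewer cells of a type and less RNA per cell cannot be told apart. It stayed between -2.37 and -2.18 in every one of the 21 alternatives tried.

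Pawr and Htra2 were lower, Basp1 and U2af2 slightly higher and 1 of 2 Wtap probe sets slightly lower, and no probe set of the other 4 partners was called. A probe set was called at an adjusted p under 0.05 (limma, adjusted over all 22518 tested probe sets), and 23.1% of all tested probe sets were called. Among the 14 tested member probe sets 7 were called, 2 higher and 5 lower, where 10.8% and 12.3% of all tested probe sets were called higher and lower. Without Wt1, the siRNA target, 6 of 13 were called, 2 higher and 4 lower, and Htra2 gave 2 of the 6. Most members were bright, and the 23.1% is not matched for signal. With only the brightest 0.25 of probe sets tested, 2126 were called higher and 1848 lower. In the main test of a share of 0.5 these counts were 2430 and 2764, so bright probe sets were called more often. Signals of the groups did not overlap for 7 member probe sets, against 27% of all tested probe sets. The median absolute log2 difference was 0.31 over the 13 tested partner probe sets and 0.23 over all tested probe sets. None of the 13 differed by more than 0.79. The count of higher calls fell to 0 without control siRNA array 2 or 4 and to 1 without Wt1 siRNA array 1 or 4, and the count of lower calls fell to 3 without control siRNA array 1 or 4 or Wt1 siRNA array 3. With arrays centred on their median log2 signal, which moved the median difference of all tested probe sets up by 0.11, 3 member probe sets were called lower and 64.2% of all calls were rises, against 46.8% on the deposited scale.

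**Figure D1:**
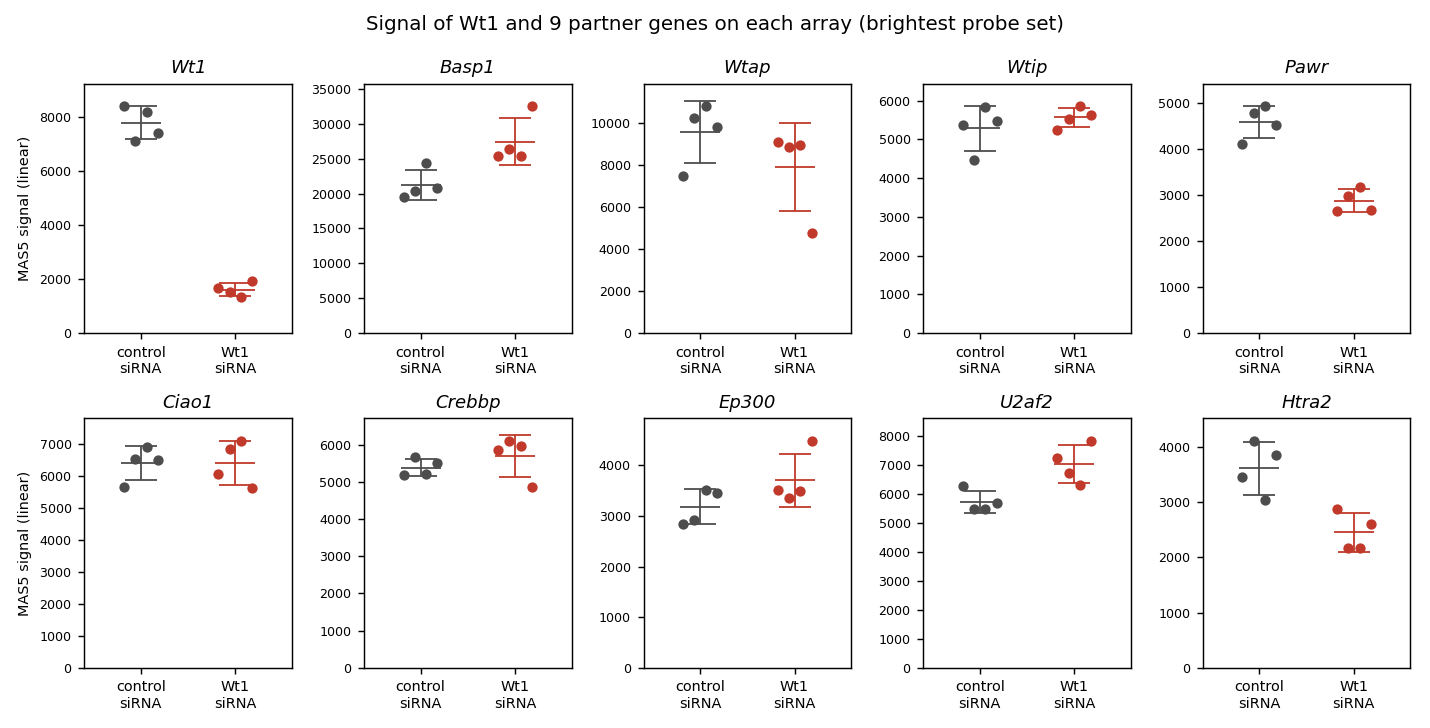
MAS5 signal (linear axis from 0) of the brightest probe set of each of the 10 genes on every array, with control siRNA in grey and Wt1 siRNA in red. Points are single arrays and bars the mean and SD of 4 arrays. Wt1 fell to 20.5% of control and Pawr to 62.7%, while Ciao1 was at 99.8%.

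Among the partners tied to repression and cell death, Pawr changed with the smallest adjusted p. Pawr encodes PAR-4, a leucine zipper protein that binds the WT1 zinc fingers and promotes apoptosis. It read 4120.6, 4782.2, 4932.9 and 4530.2 in control siRNA samples 1 to 4 and 2663.1, 2987.8, 3187.9 and 2681.5 in Wt1 siRNA samples 1 to 4. Every Wt1 siRNA array lay below every control array. The level fell to 62.7% of control, a log2 difference of -0.67 ± 0.09 (SE, n = 4 each; limma adjusted p = 0.000344). The call held whichever array was left out, with adjusted p up to 0.00192. A dim Pawr probe set, with signals of 100 to 296.5 near background, was not tested and had a log2 difference of -0.12 ± 0.43. Averaged with that dim probe set, Pawr was at -0.40 and did not pass (adjusted p = 0.120).

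Basp1 encodes a membrane-anchored phosphoprotein of neurons and podocytes whose nuclear form is a WT1 corepressor. Its signals were 19517.7, 20393.3, 24364.7 and 20779.3 on control siRNA arrays and 25438.4, 26406.6, 25460.1 and 32520.1 on Wt1 siRNA arrays. All Wt1 siRNA arrays were above all control arrays, and array 4 was the highest. The level rose 1.29-fold (log2 0.37 ± 0.10, SE; limma adjusted p = 0.0200). Without Wt1 siRNA array 4 the difference was 0.28 (adjusted p = 0.0298). The call was lost without control siRNA array 2 or 4 (adjusted p = 0.0567 and 0.0574) and without the intensity trend in the variance model (0.0538).

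Htra2 encodes a serine protease of mitochondria that, once released during apoptosis, cleaves WT1. The brighter probe set had signals of 3450.6, 4110.9, 3034.7 and 3858.4 on control siRNA arrays and 2881.6, 2172.8, 2163.8 and 2606.1 on Wt1 siRNA arrays. The dimmer one had 1459.9, 1702.2, 1121.5 and 1356.3 on control arrays and 1058.4, 1003.9, 846.2 and 469 on Wt1 siRNA arrays. In both, every Wt1 siRNA array lay below every control array, and the suffix _s_at of both probe sets means that they may match more than 1 transcript. The brighter fell to 67.9% of control (log2 -0.56 ± 0.12; adjusted p = 0.00707), a call that held in all 21 alternatives. The dimmer fell to 57.8% (log2 -0.79 ± 0.24; adjusted p = 0.0328), and this call was lost without control siRNA array 1, 2 or 4 or Wt1 siRNA array 3 (adjusted p up to 0.0928). It was also lost with median centring (0.0566), no filter on signal (0.0568) and no intensity trend (0.0598). Without Wt1 siRNA array 4 its difference was -0.53 (adjusted p = 0.0336).

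**Figure D2:**
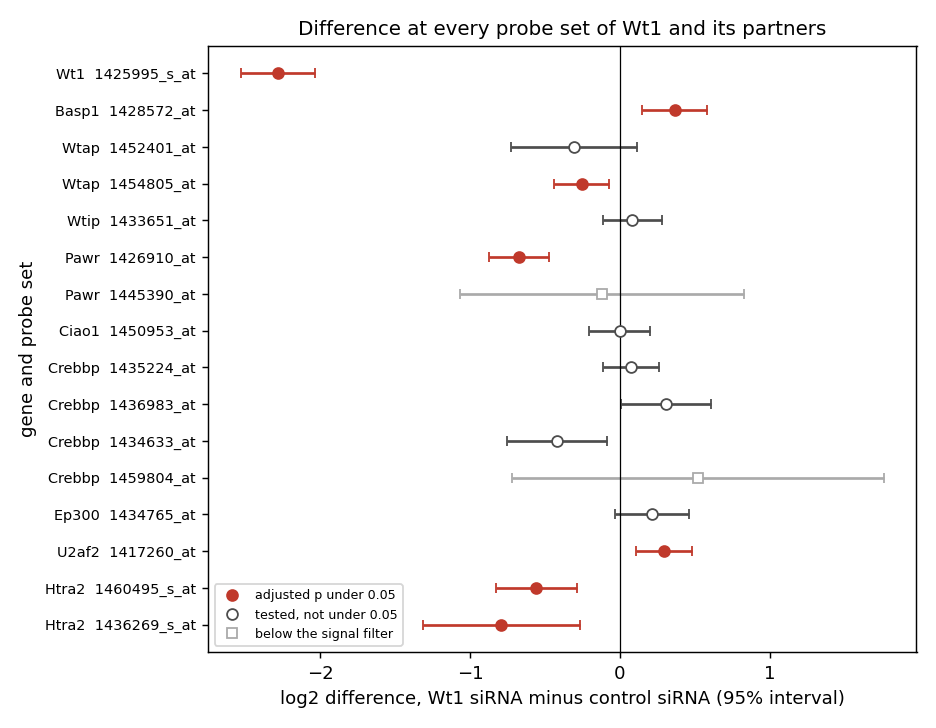
Log2 difference (Wt1 siRNA minus control siRNA, horizontal axis) with its 95% interval for all 16 probe sets. Filled red circles passed the test, open circles did not, and the 2 grey squares were below the signal filter, with values from the fit without that filter. Wt1 at -2.28 lies apart from its partners, which span -0.79 to 0.37 among tested probe sets.

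The RNA processing partners differed little. U2af2 encodes the large U2AF subunit, which binds the polypyrimidine tract before the 3' splice site. Its signals were 6270.4, 5468.1, 5470.3 and 5696.8 on control siRNA arrays and 7235.9, 6730.8, 6327.5 and 7829.9 on Wt1 siRNA arrays. The groups did not overlap, with a narrow gap between control array 1 and Wt1 siRNA array 3. U2af2 rose 1.23-fold (log2 0.29 ± 0.08; limma adjusted p = 0.0264). The call was lost without control siRNA array 2 or 4 or Wt1 siRNA array 1 or 4 (adjusted p = 0.0727, 0.0663, 0.0731 and 0.0517), with no filter (0.0504) and without the intensity trend (0.0634).

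Wtap encodes WT1-associating protein, a regulatory subunit of the methyltransferase that places N6-methyladenosine on RNA. Its dimmer probe set read 5563.9, 5263.1, 5578.6 and 5331 on control siRNA arrays and 4597.5, 5035.6, 4704.9 and 3934.4 on Wt1 siRNA arrays. The groups did not overlap, and the level fell to 83.8% of control (log2 -0.26 ± 0.08; adjusted p = 0.0480). That call was lost on leaving out any array except Wt1 siRNA array 2, with adjusted p of 0.0693 to 0.0990. It was also lost with median centring (log2 -0.15, adjusted p = 0.538), with no filter (0.0888) and without the intensity trend (0.0922). The brighter probe set read 7469.5, 10207.4, 10781.9 and 9786.1 on control arrays and 9076.8, 8857.3, 8939.9 and 4778.1 on Wt1 siRNA arrays. Those groups overlapped, and the difference of -0.31 ± 0.19 did not pass (adjusted p = 0.281). Its low value on Wt1 siRNA array 4 set much of its size, since the difference was -0.08 without that array.

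The coactivator genes Crebbp and Ep300, encoding the acetyltransferases CBP and p300, had no called probe set. Ep300 signals were 2846.9, 2912.6, 3511 and 3459.1 on control siRNA arrays and 3510.1, 3345.6, 3483.1 and 4477.3 on Wt1 siRNA arrays. The groups overlapped, and the log2 difference was 0.22 (95% interval -0.03 to 0.46; limma adjusted p = 0.195). It was 0.12 without Wt1 siRNA array 4.

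Crebbp had 4 probe sets, of which 3 were tested and did not move alike. The brightest had control signals of 5181.7, 5663.8, 5216 and 5504.8, against 5851.9, 6104.2, 5963.5 and 4861.7 after Wt1 siRNA. All but array 4 of the Wt1 siRNA group were above the controls, and the difference was 0.07 (95% interval -0.11 to 0.26; adjusted p = 0.575). The middle one read 2565.6, 2554.1, 2878.2 and 2360.4 on control arrays and 2761.1, 3243.8, 2711 and 4289.1 on Wt1 siRNA arrays, a difference of 0.31 (adjusted p = 0.134). The third read 1186.5, 906.7, 1420.8 and 1312.4 on control arrays and 882.8, 886.2, 815.7 and 975.3 on Wt1 siRNA arrays. It was at -0.42 (95% interval -0.76 to -0.09), with overlap only between control array 2 and Wt1 siRNA array 4, and did not pass (adjusted p = 0.0669). It passed without control siRNA array 2 (log2 -0.55, adjusted p = 0.0175) and with array weights (adjusted p = 0.0305). The faintest, at 26.1 to 142.3, was near background and untested.

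Whether probe sets of 1 gene moved unequally was tested on their log2 ratio within each array, in 4 pairs. The third Crebbp probe set changed by -0.50 relative to the brightest (exact two-sided permutation p = 0.0571, adjusted p = 0.229), where 4 against 4 arrays cannot give a p under 0.0286 or, for 1 pair alone, an adjusted p under 0.114. For the middle Crebbp probe set the relative change was 0.23, for Wtap 0.05 and for Htra2 -0.23 (adjusted p = 0.686 each; exact permutation test). The test could thus not have called 1 pair that changed alone, and it cannot decide whether probe sets of a gene changed equally.

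Wtip and Ciao1 were close to their control levels. Wtip encodes a LIM domain protein of cell junctions that can move to the nucleus and hold back WT1-dependent transcription. It read 5355.1, 4454, 5832.6 and 5470 on control siRNA arrays and 5247, 5532.9, 5850.3 and 5620.8 on Wt1 siRNA arrays. Its groups overlapped, with a difference of 0.08 (95% interval -0.11 to 0.28; limma adjusted p = 0.556). Ciao1 encodes a WD40 protein of cytosolic iron-sulfur cluster assembly that was also isolated as a WT1-binding protein. It read 5664.4, 6513.9, 6906.2 and 6507.1 on control arrays and 6057.2, 6829.6, 7088.6 and 5610.5 on Wt1 siRNA arrays. The difference was -0.0028 (95% interval -0.21 to 0.20; adjusted p = 0.988). Both intervals lie above the -0.67 measured for Pawr.

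**Figure D3:**
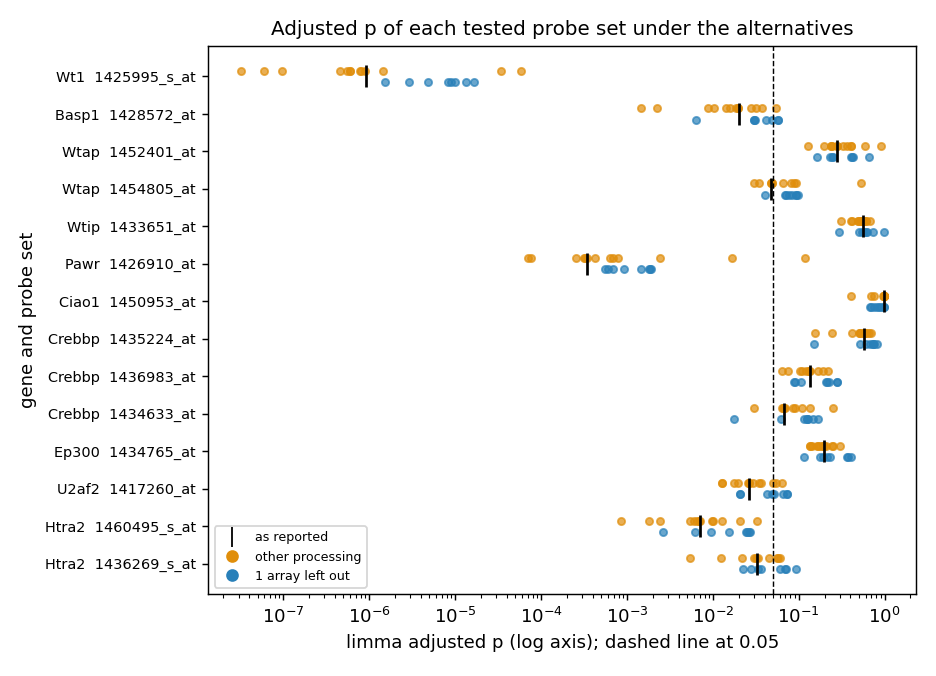
Limma adjusted p (log axis, dashed line at 0.05) of the 14 tested probe sets as reported (black bars), under other processing (orange) and with 1 array left out (blue). Wt1 and the brighter Htra2 probe set stay left of the line throughout. The Pawr probe set crosses it once, at 0.120, while Basp1, U2af2, the dimmer Htra2, the dimmer Wtap and the third Crebbp probe sets have points on both sides.

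Genes that work beside each partner were counted from lists, taking the brightest tested probe set of each gene. Of 124 tested genes on these lists, 18 were called higher and 13 lower, a share of 25% against 27.8% of all 11264 genes tested this way. The median log2 difference was 0.03 on the lists and -0.0044 over all tested genes, so the lists together did not stand out from the other genes. With median centring 4 of them were called lower. The count of higher calls was 10 without control siRNA array 2 or Wt1 siRNA array 1 and 11 without control siRNA array 4 or Wt1 siRNA array 2.

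Of 25 other tested WT1 interactors, 2 were called higher and 2 lower (median 0.12), which is 16% against 27.8% of all tested genes. Fhl2, encoding a LIM domain coregulator, rose 1.44-fold (log2 0.52 ± 0.08; limma adjusted p = 0.000693). The corepressor scaffold gene Sin3a rose 1.32-fold, a call lost when its probe sets were averaged (adjusted p = 0.108) and without Wt1 siRNA array 1 (0.0650) or 3 (0.0567). Cited2, whose product binds CBP and p300, fell to 67.0% of control, but another Cited2 probe set was at -0.15 and their average did not pass (adjusted p = 0.0687). Men1, encoding the tumour suppressor menin, fell to 71.9%, a call lost with median centring (adjusted p = 0.0756) or averaged probe sets (0.334).

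In the m6A list of 16 tested genes, 3 were called lower and 2 higher (median 0.01), which is 31.3% against 27.8%. The demethylase gene Alkbh5 fell to 63.8% of control (log2 -0.65 ± 0.09; limma adjusted p = 0.000399). Mettl3, the catalytic partner of the Wtap complex, fell to 75.4%, a call lost with median centring (adjusted p = 0.206) and without control siRNA array 2 (0.0622) or Wt1 siRNA array 3 (0.0600). The RNA-binding reader gene Igf2bp1 rose 1.51-fold (log2 0.60 ± 0.10), and its other probe sets were also higher. With median centring 1 gene of this list was called lower and 1 higher.

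Among 15 tested partners of CBP and p300, 4 were called higher and 2 lower (median 0.06), which is 40% against 27.8%. The steroid receptor coactivator gene Ncoa3 had the largest rise, from 1478 ± 34 to 2714 ± 104 (SD, n = 4 each), or 1.83-fold (limma adjusted p = 3.30e-05). Its relative Ncoa2 rose 1.31-fold, a call lost on averaging its probe sets (adjusted p = 0.255) and on leaving out control siRNA array 2 (0.0575), control siRNA array 4 (0.0623) or Wt1 siRNA array 3 (0.0569). Another Ncoa2 probe set was also called higher (0.59, adjusted p = 0.0300), and a dimmer one was at -0.28 (0.536). Hif1a, encoding the oxygen-regulated transcription factor, fell to 79.9% of control and did not pass with median centring (adjusted p = 0.347) or averaged probe sets (0.101). Another Hif1a probe set was also called lower (-0.43, adjusted p = 0.0106). Carm1 rose 1.29-fold (limma adjusted p = 0.00279), a call that held whichever array was left out (up to 0.0124). Crtc3 rose 1.30-fold (0.0283), and another Crtc3 probe set was also called higher (0.996, adjusted p = 0.00798). The Crtc3 call was lost without control siRNA array 2 or 4 or Wt1 siRNA array 1 or 2 (up to 0.0903). The largest fall was that of Cited2.

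Of 13 genes for 3' splice site recognition, 3 were called higher and 1 lower (median 0.06), which is 30.8% against 27.8%. Uhmk1, a kinase that phosphorylates splicing factor 1, rose 1.30-fold (log2 0.38 ± 0.09; limma adjusted p = 0.0102). The helicase gene Ddx39b fell to 78.4%, a call lost with median centring (adjusted p = 0.316). Sf3a1 and U2surp were called at 1.17-fold and 1.14-fold, but the average over all their probe sets was -0.35 and -0.09, and 1 other probe set of each was called lower (-0.62 and -0.46). The Sf3a1 average includes an untested probe set at background (mean signal 117.6, log2 -0.86 ± 0.61). The Sf3a1 probe set that was called lower was dim, at 495.4. Sf3a1 was called only without control siRNA array 3 or Wt1 siRNA array 3, and U2surp only without control siRNA array 3, when 1 array was left out (adjusted p up to 0.127 and 0.125 otherwise).

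Of 9 iron-sulfur assembly genes beside Ciao1, 1 was called higher and 2 lower (median 0.04), which is 33.3% against 27.8%. Iscu, the scaffold gene, fell to 78.5% of control and Ciao3 to 78.6%, and Ciao2b rose 1.18-fold. With median centring none of them passed (limma adjusted p = 0.281, 0.266 and 0.121). The Ciao3 call was also lost with quantile normalization (0.0629) and without control siRNA array 1 or 4 or Wt1 siRNA array 1 or 2 (adjusted p up to 0.122), and that of Ciao2b without any array except control siRNA array 3 and Wt1 siRNA array 4 (up to 0.120).

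All 4 calls among 12 genes of the Pawr pathway were rises (median 0.20), a share called of 33.3% against 27.8% of all tested genes. Sqstm1, encoding the autophagy receptor p62, rose to 150.3% of control (log2 0.59 ± 0.07; limma adjusted p = 0.000215), and the kinase gene Akt1 rose 1.45-fold. Topors, an E3 ligase gene, was at 1.44-fold with overlapping groups, and Hspa5, an endoplasmic reticulum chaperone gene whose product binds PAR-4, at 1.20-fold. Of these, Sqstm1 alone kept its call when probe sets were averaged, where Akt1 was at 0.08 (adjusted p = 0.763), Topors at 0.20 (0.149) and Hspa5 at 0.17 (0.0978). The Akt1 average includes an untested probe set at background (mean signal 75.3, log2 -0.97 ± 0.59). Another Akt1 probe set was also called higher (0.75, adjusted p = 0.0233), and a dimmer one was at 0.02 (0.958). At its brightest probe set the Akt1 call held whichever array was left out (adjusted p up to 0.0115). Calls of Topors and Hspa5 each survived leaving out only 2 of the 8 arrays, control siRNA array 3 with Wt1 siRNA array 3 for Topors and with Wt1 siRNA array 4 for Hspa5 (adjusted p up to 0.0971 and 0.111 otherwise). Hspa5 was also at 0.10 with quantile normalization (adjusted p = 0.358).

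The LIM and Hippo genes around Wtip had 1 higher and 3 lower calls among 13 (median 0.0040), which is 30.8% against 27.8%. Zyx, encoding the focal adhesion LIM protein zyxin, fell from 22512 ± 3932 to 9915 ± 940, or 44.4% of control (limma adjusted p = 3.46e-05). The Hippo kinase genes Lats2 and Lats1 were at 72.2% and 85.2%, both lost with median centring (adjusted p = 0.136 and 0.530) and with averaged probe sets (0.197 and 0.571). Another Lats2 probe set was also called lower (-0.56, adjusted p = 0.0075). Lpp, a relative of zyxin, was not called at its brightest probe set (-0.28), but 4 of its other probe sets were called lower, at -0.67 to -0.42. Lats1 kept its call only without control siRNA array 3 or Wt1 siRNA array 4 when 1 array was left out (adjusted p up to 0.136 otherwise). The scaffold gene Sav1 rose 1.29-fold. Among 17 genes of mitochondrial cell death beside Htra2, Septin4 alone was called at its brightest probe set, at 52.3% of control (adjusted p = 0.00548). The list median was -0.11, and the share called was 5.9% against 27.8%. The signal of Septin4, 448.6 ± 49.4 against 234.2 ± 20.2, approached background after Wt1 siRNA. Cycs, encoding cytochrome c, was not called at its brightest probe set (-0.18, adjusted p = 0.214), but it passed there with quantile normalization (-0.32, adjusted p = 0.000622), and 2 other bright probe sets were called lower, at -0.50 and -0.61. Among 6 relatives of Basp1 the share called was 16.7% against 27.8%. Marcksl1, a membrane phosphoprotein gene, was the one called at its brightest probe set, and it rose 1.29-fold (adjusted p = 0.00364). Its relative Marcks was at -0.02 there, but 2 of its other probe sets were called lower (-0.46 and -0.50), and so was the average over its probe sets (-0.22, adjusted p = 0.0366). On all lists, 7 genes that were not called at their brightest probe set had another probe set that was. They include Hspa4 (-0.59), Srsf1 (0.37), Srpk1 (-0.47) and Nmt2 (-0.59). Lpp, Cycs, Marcks and these genes were named after their values were seen.

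**Figure D4:**
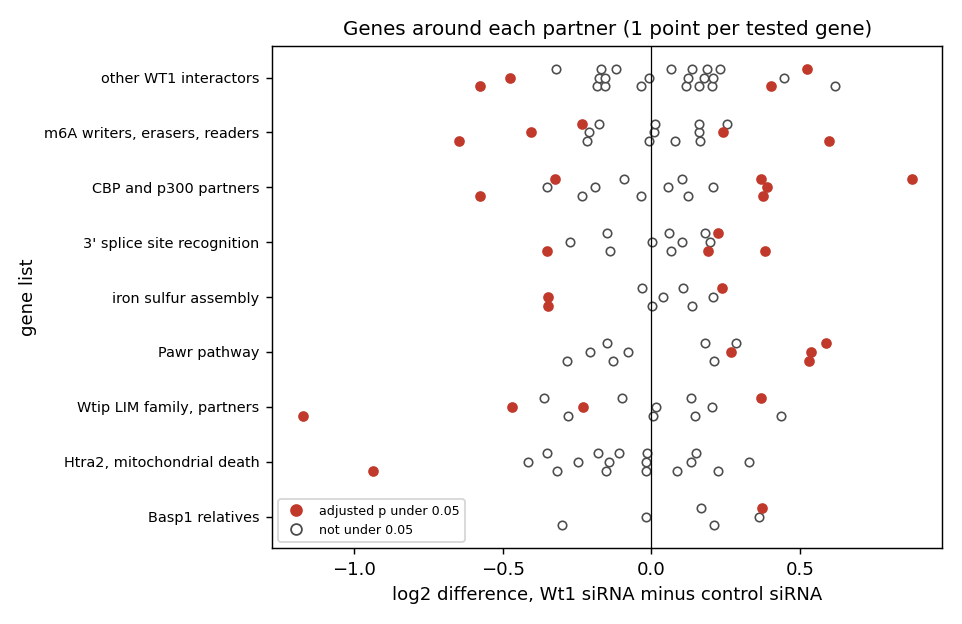
Log2 difference (Wt1 siRNA minus control siRNA, horizontal axis) of each tested gene in 9 lists around the partners, with called genes in red. Points are single genes at their brightest tested probe set, and the small vertical offsets only separate them. Zyx at -1.17 and Ncoa3 at 0.88 are the outermost called genes.

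The genes whose pattern over the 8 arrays was most like that of Wt1, by Pearson correlation of log2 signals among 11264 genes, were Shh (0.999), Fbln5 (0.998), Mapk12 (0.996), Nes (0.994) and Exoc5 (0.993). The arrays form 2 groups, so these values mainly restate a group difference with little spread. Shh, encoding the secreted signal sonic hedgehog, was at 30.8% of control, the elastic fibre gene Fbln5 at 34.4% and the kinase gene Mapk12 at 32.9%. The intermediate filament gene Nes was at 53.9% and the exocyst gene Exoc5 at 39.6%.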

How the data were processed

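Total RNA of 8 samples was measured on Affymetrix mouse expression arrays, 1 per sample, with groups taken from the titles. The authors deposited MAS5 signals, a linear intensity for each probe set (the submitters' processing notes name MAS5, without a version). All arrays had the same mean after trimming 2% at each end, and their number limits the precision. Without array controls there were 45037 probe sets, of which 34957 had 1 gene symbol in the platform annotation (34753 updated through Entrez IDs), 920 had several and 9160 were unnamed here.

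Values were log2 transformed. The brighter part of the probe sets by mean log2 signal (a share of 0.5, lowest mean signal 291.1) was tested with limma 3.58.1 in R 4.3.3 (lmFit, eBayes with intensity trend), two-sided, with Benjamini-Hochberg adjustment over 22518 probe sets and a threshold of 0.05. The procedure was tested on simulated data, where it found changes of dim probe sets less often than those of bright ones. Probe set ratios were tested by exact permutation. Named were all members, the called genes with the largest rise and fall of each list with up to 2 more, and the 5 genes most like Wt1. For partners of CBP and p300 all called genes were named. Members and lists were chosen with earlier results of these data known. Of 149 listed genes, 134 were named on the array and 124 tested. The alternatives tried were a replicate block, normalization by quantiles, centring on medians, an added 16 or 64, other filters and variance models, array weights, 1 value per gene and leaving out each array. Leaving out 1 array of each group together was added after seeing the data. Plots used matplotlib 3.10.9 (Python 3.11.15).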

Additional observations from a re-analysis of the deposited data

Results flagged for a closer look

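On 3 of the 32 sets of 4 arrays examined (16 probe sets in 2 groups), 1 array lay far from the other arrays of its group by Dixon's criterion, where chance gives about 1 in 20. All were Wt1 siRNA array 4. Its signal was 32520.1 for Basp1, above the other Wt1 siRNA arrays (gap over range 0.848), 4477.3 for Ep300, also above them (0.835), and 4778.1 for the brighter Wtap probe set, below them (0.962). Over all tested probe sets such extremes numbered 1019 on this array and 921 on control siRNA array 3, against 147 to 279 on the other arrays. The 3' to 5' ratio on Wt1 siRNA array 4 was 0.810 for Gapdh, within the range of the other arrays, and 1.11 for actin, the lowest of all. The part of this array in the results was not tested beyond leaving it out.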

How the results depend on the processing

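Of 284 recomputed values of single member probe sets, 244 kept their direction and side of the threshold, 30 lost the call, 2 gained it and 8 changed sign, all 8 for Ciao1. Ciao1 was at 0.11 with median centring, 0.036 with array weights, 0.096 without the array of lowest weight in each group (an alternative added after seeing the data) and -0.060 to 0.058 with 1 array left out. Member probe sets called higher numbered 1 with no filter, 0 without the intensity trend and 1 without the lowest-weight arrays, and 0 to 2 with 1 array left out. Those called lower numbered 3 with median centring, with no filter and without the trend, and 3 to 5 with 1 array left out. Over all tested probe sets 1369 were lower with median centring against 2764. Over the related lists the higher calls numbered 32 with array weights, 10 with the mean over probe sets, 31 without the lowest-weight arrays and 10 to 24 with 1 array left out, and the lower calls 4 with median centring. Of the 31 called genes on the lists, 14 lost the call with median centring, 9 with no filter, 8 without the trend and 2 with quantile normalization. Robust fitting lost 1 and the replicate block 9. With averaged probe sets 29 of the 31 could be tested, and 14 of these lost the call. With 1 array left out the ratio changes spanned -0.11 to 0.18 for Wtap, -0.39 to 0.060 for Htra2, 0.02 to 0.34 for the middle Crebbp probe set and -0.65 to -0.40 for the third, and 3 against 4 arrays cannot give a permutation p under 0.0286. Same-numbered arrays of the 2 groups deviated together by correlations of -0.06 to 0.08, and differently numbered ones by -0.20 to 0.16. With 4 arrays in each group these values cannot settle whether the numbers pair the samples. With the replicate block, Wt1 was at -2.28, 2 member probe sets were higher and 4 lower, and the Wtap call was lost (adjusted p = 0.0661). Probe sets near background, 1 each of Pawr and Crebbp, limit what can be said of them.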
